A study of Mus musculus with 26 samples.

Results

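The immediate early genes followed here were Fos, Fosb, Jun, Junb, Egr1, Egr2, Egr3, Atf3, Ier2 and Dusp1, 10 genes of the 18194 that a probe set of the array is annotated to alone. They were read from 13 probe sets annotated to 1 of these symbols alone, and each gene is given by its brightest probe set, the one with the highest mean log2 signal over the 26 arrays, with the other probe set of Jun, Egr2 and Egr3 beside it. Joint tissue of male C57BL/6 mice was measured after destabilization of the medial meniscus (DMM), an operation that cuts the ligament holding the medial meniscus and leads to osteoarthritis, with 1-colour Affymetrix arrays. Unoperated mice of 12 weeks of age made up time 0 (3 arrays). Sham-operated mice were sampled at week 2, week 4, week 8 or week 16 of the course, when they were 14, 16, 20 or 28 weeks old (3 arrays each), and DMM mice at the same times and ages (3 arrays each, 2 at week 2). Each array held RNA pooled from 3 mice, so that an n of 3 is 3 pools, and p-values measure the spread between pools. The tissue was the medial side of the joint with cartilage, bone, meniscus, synovium, capsule and ligaments together. In such bulk tissue, a change in the number of cells of a type and a change in RNA per cell cannot be told apart. Surgery and age also run together in the comparisons with time 0 and cannot be told apart there.

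Immediate early genes are transcribed within minutes of a growth factor, a mechanical load, a cytokine or a cell stress, from factors already present in the cell and without new protein. Fos, Fosb, Jun and Junb encode leucine zipper proteins that pair to form the transcription factor AP-1, and AP-1 drives matrix metalloproteinases in joint cells. Atf3 belongs to the related ATF and CREB family and is induced by stress. Egr1, Egr2 and Egr3 are zinc finger factors, held in check by the corepressors Nab1 and Nab2. Dusp1 encodes a phosphatase that switches off the MAP kinases which induced it, and Ier2 encodes a small nuclear protein of the same early response. The transcripts are short-lived.

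The promoters of Fos, Jun, Junb, Atf3 and Dusp1 are printed. These 5 were chosen because each was called higher in DMM than at time 0 at weeks 2 and 4. In DMM minus sham none of the 5 was called at week 2. At week 4 Dusp1 was not called there, and Egr1, not printed, was called. The printed promoters are 200 bases before the annotated start, 5′ to 3′ on the strand of the gene, from RefSeq on GRCm38.p6. Fos is at chr12:85473690-85473889 on the plus strand. Jun (chr4:95052223-95052422), Junb (chr8:84978749-84978948), Atf3 (chr1:191183334-191183533) and Dusp1 (chr17:26508473-26508672) are on the minus strand. Capitals mark the matches to the searched motifs, on either strand.
Fos: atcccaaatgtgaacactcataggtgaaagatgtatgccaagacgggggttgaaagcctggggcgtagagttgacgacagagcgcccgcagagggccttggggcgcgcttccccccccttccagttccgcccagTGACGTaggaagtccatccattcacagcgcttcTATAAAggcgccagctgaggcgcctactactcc
Jun: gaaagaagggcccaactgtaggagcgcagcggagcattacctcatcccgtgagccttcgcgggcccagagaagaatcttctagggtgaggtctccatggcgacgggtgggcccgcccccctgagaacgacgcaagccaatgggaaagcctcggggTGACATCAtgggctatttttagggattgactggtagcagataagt
Junb: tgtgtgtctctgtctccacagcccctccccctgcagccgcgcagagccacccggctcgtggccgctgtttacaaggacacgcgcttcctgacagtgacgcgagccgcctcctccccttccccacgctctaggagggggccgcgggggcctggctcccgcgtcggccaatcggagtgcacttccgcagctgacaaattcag
Atf3: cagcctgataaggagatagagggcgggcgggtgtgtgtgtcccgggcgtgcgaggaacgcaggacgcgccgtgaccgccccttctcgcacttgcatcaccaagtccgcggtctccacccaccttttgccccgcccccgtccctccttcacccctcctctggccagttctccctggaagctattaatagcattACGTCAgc
Dusp1: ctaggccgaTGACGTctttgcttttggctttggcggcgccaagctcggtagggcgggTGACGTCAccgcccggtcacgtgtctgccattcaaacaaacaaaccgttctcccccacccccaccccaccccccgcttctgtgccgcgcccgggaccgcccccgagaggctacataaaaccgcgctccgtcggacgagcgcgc

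Of the 10 members, 7 were searched (these 5, Fosb and Egr2). Ier2 and Egr3 had no entry in the promoter table, and Egr1, on chromosome 18, was left out of the search. The motifs searched were TGACGT, the core of the cAMP response element, its full form TGACGTCA, which contains TGACGT on both strands, the AP-1 site TGANTCA, the TATA box TATAAA, the CArG box that serum response factor binds, and TGACATCA, which was added after the Jun promoter had been read. TGACGT was present in Fos at -66 to -61 from the start, in Dusp1 at -191 to -186, and in Atf3 at -8 to -3, where it lay on the opposite strand and reads ACGTCA. Dusp1 also held the full TGACGTCA at -143 to -136. In Egr2 TGACGT lay on the opposite strand in 3 of its 5 annotated start windows, which overlap in part. Jun held TGACATCA at -45 to -38, and Fos held TATAAA at -33 to -28. A CArG box stood in 4 of the 5 windows of Egr2. Junb and Fosb held none of these letters in this window. Of 32851 promoter entries in the mouse table, 5.85% held TGACGT in the same 200 bases, 1.47% TGACGTCA, 5.48% TGANTCA, 2.66% TGACATCA, 9.96% TATAAA and 1.18% a CArG box. A match is a run of letters, and binding was not measured.

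Levels are normalized log2 signals, so a difference of 1 is a doubling. A probe set was tested where its mean exceeded 7.93, the median of all log2 values, which kept 22513 of 45101. The rule kept 8 of the 10 members. Fosb (mean log2 signal 6.46) and Egr2 (7.32) were too dim on these arrays, and their values are given without a test. The other 8 ranged in mean log2 signal from 8.06 for Atf3 to 11.61 for Dusp1, but levels of different probe sets are not comparable as amounts of RNA. Across the 9 conditions, limma's F test called 6 of the 8 tested members at an adjusted p under 0.05, against 43.3% of all probe sets tested. The 6 were Jun (adjusted p = 3.09e-05), Junb (8.67e-05), Fos (0.000782), Egr1 (0.00079), Atf3 (0.00133) and Dusp1 (0.00375). Egr3 (adjusted p = 0.0651) and Ier2 (0.0719) did not pass.

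Some arrays bear on what follows. The sham pools of week 2 differed in the mean log2 signal of 10 skeletal muscle markers, from 9.66 to 13.41, and replicate 2 of that group received almost no weight when arrays were weighted by their fit to the group. Correlations between arrays ranged from 0.899 to 0.995. Markers of the labelled tissue were present, with mean log2 signals of 9.89 to 12.66 for the 8 chondrocyte markers, 10.94 to 12.51 for the 6 osteoblast markers that had a probe set, and 9.82 to 11.44 for the 8 markers of synovial fibroblasts and lining. The 7 neutrophil markers with a probe set, cells of bone marrow, were at 14.21 to 14.87. The 3′ minus 5′ log2 difference of the actin control probes was 0.72 and 1.14 in the DMM pools of week 2 and 0.56 to 0.91 in the other pools. It was 0.56 to 0.61 at time 0, below the DMM pools of week 2 and those of week 4 (0.67 to 0.83). The Gapdh difference was 0.211 to 0.280 at time 0, and higher in the DMM pools of week 2 (0.281 and 0.488) and week 4 (0.332 to 0.475). The part of these differences in the results was not tested beyond the fits given below.

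**Figure D1:**
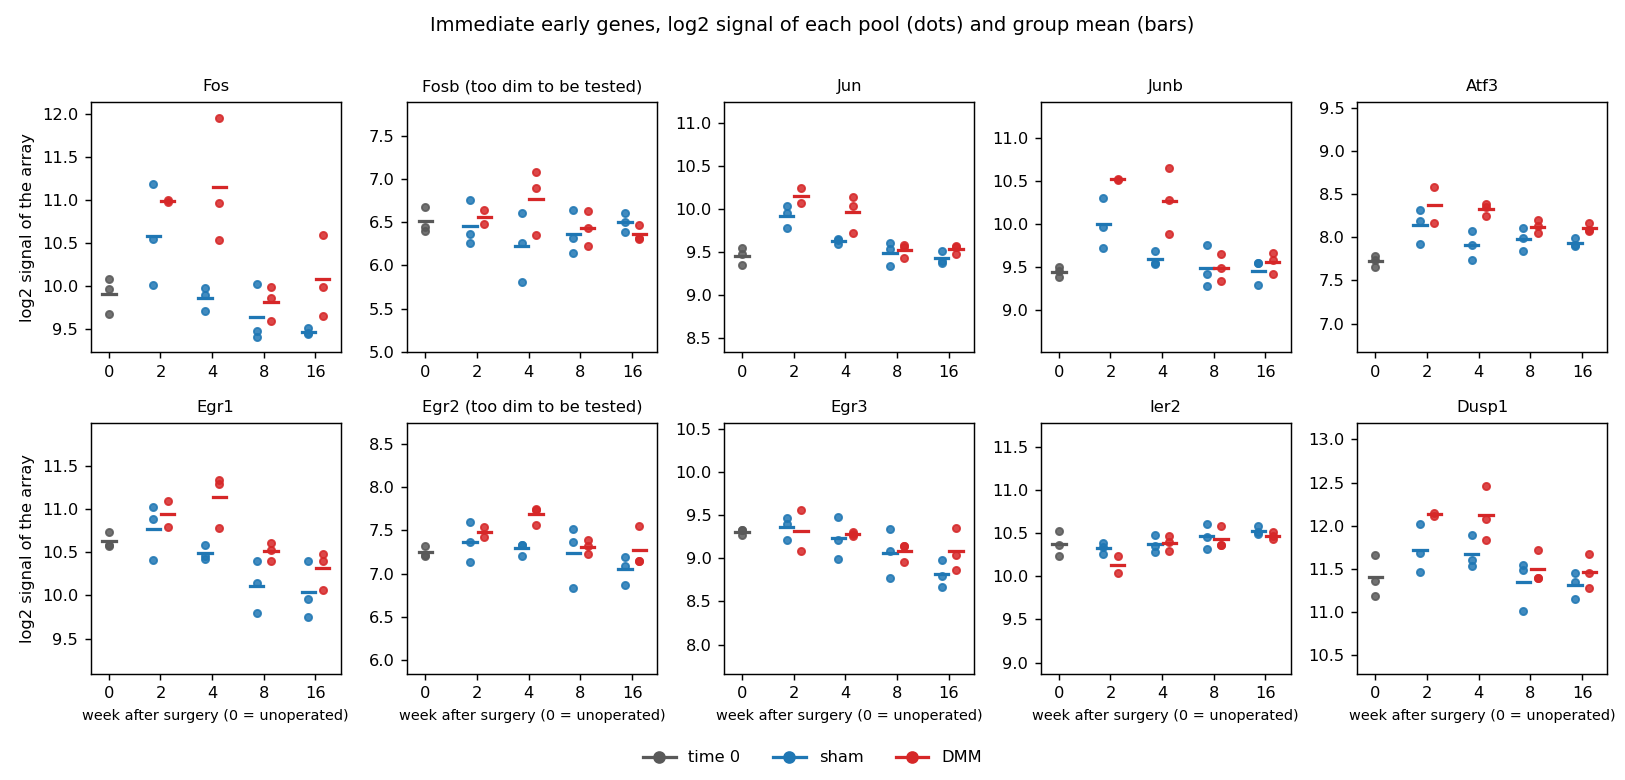
Log2 signal (vertical axis, each panel spanning the same number of units) of the 10 members by week after surgery, with 0 for the unoperated mice (grey), and sham (blue) and DMM (red) side by side. Each dot is a pool and each bar a group mean. Fos, Jun, Junb, Egr1 and Atf3 have all 3 DMM pools of week 4 above all 3 sham pools, and Ier2 stays within 10.03 to 10.61.

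Fos, which can only act in a pair with another zipper protein such as Jun, moved over the widest range of the 10, from 9.42 to 11.95. At time 0 its log2 signals were 10.08, 9.97 and 9.68. At week 4 the sham pools read 9.98, 9.90 and 9.71 and the DMM pools 10.53, 10.97 and 11.95. Every DMM pool lay above every sham pool, but the DMM pools were spread far wider than the sham pools. Fos was 2.44-fold higher in DMM (difference 1.29 ± 0.29 SE, adjusted p = 0.00577). At week 2 the DMM pools stood close together at 10.999 and 10.973, while the sham pools ran from 10.02 over 10.55 to 11.18 and so enclosed them (difference 0.40 ± 0.33, adjusted p = 0.576). By week 8 the sham pools (9.42, 10.03 and 9.48) and the DMM pools (9.595, 9.995 and 9.861) overlapped near the level of time 0. At week 16 the sham pools were tightly set at 9.51, 9.45 and 9.46, the DMM pools read 9.65, 10.60 and 9.99, and the groups did not overlap, but the difference of 0.61 ± 0.29 had an adjusted p of 0.676 (95% interval -0.01 to 1.22).

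Fosb, a Fos relative, stayed dim at 5.81 to 7.08. Its DMM pools of week 4 read 7.08, 6.35 and 6.89 and its sham pools 6.61, 5.81 and 6.26. The groups overlapped, with DMM 0.55 higher in the mean.

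Jun, the most common partner of Fos, was measured by a pair of probe sets. On the brighter one the sham pools of week 4 lay at 9.64, 9.59 and 9.65 and the DMM pools at 9.72, 10.03 and 10.13. The groups did not overlap, and DMM was 1.26-fold higher (difference 0.33 ± 0.09, adjusted p = 0.0185). The other probe set gave a larger difference, with sham pools at 9.46, 9.20 and 9.47 and DMM pools at 9.73, 10.21 and 10.38 (1.66-fold, 0.73 ± 0.15, adjusted p = 0.00266). At week 2 Jun was high in both operated groups. The sham pools read 9.77, 9.96 and 10.04 and the DMM pools 10.07 and 10.24, all above the time 0 pools at 9.55, 9.35 and 9.48. At weeks 8 and 16 the pools of both groups lay between 9.34 and 9.61.

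Junb, a Jun relative, can pair with Fos in place of Jun. Its time 0 pools were at 9.46, 9.50 and 9.38. The sham pools of week 2 read 9.73, 10.30 and 9.96, and the DMM pools stood above all of them at 10.51 and 10.52 (DMM minus sham 0.52 ± 0.18, adjusted p = 0.109). At week 4 the sham pools were back at 9.69, 9.55 and 9.54, whereas the DMM pools read 9.89, 10.64 and 10.28. Junb was then 1.60-fold higher in DMM (0.68 ± 0.16, adjusted p = 0.00592). At week 8 the difference was 0.005 ± 0.16, with a 95% interval of -0.32 to 0.33.

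Atf3, the stress-induced factor, was low in the unoperated joint. The time 0 pools read 7.78, 7.66 and 7.73, and of the 23 operated pools only a sham pool of week 4, at 7.73, fell among them. At week 4 the sham pools were at 8.08, 7.73 and 7.91 and the DMM pools at 8.34, 8.25 and 8.38, with no overlap (1.34-fold, 0.42 ± 0.11, adjusted p = 0.00997). Its DMM pools read 8.20, 8.13 and 8.04 at week 8 and 8.17, 8.08 and 8.08 at week 16, each above every time 0 pool, with differences from time 0 of 0.40 ± 0.11 (adjusted p = 0.0912) and 0.39 ± 0.11 (0.0727) that did not pass the test.

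Egr1, the best known EGR factor, had sham pools of 10.42, 10.46 and 10.58 and DMM pools of 10.78, 11.34 and 11.30 at week 4. The groups did not overlap and DMM was 1.57-fold higher (0.65 ± 0.18, adjusted p = 0.0177). Egr1 read 10.58, 10.74 and 10.59 at time 0, and its sham pools read 10.14, 10.40 and 9.80 at week 8 and 9.96, 9.75 and 10.40 at week 16. All 3 sham pools lay below all 3 time 0 pools at both weeks, with differences of -0.52 ± 0.18 (adjusted p = 0.172) and -0.60 ± 0.18 (0.0594). The DMM pools of week 8 (10.40, 10.53 and 10.60) and of week 16 (10.06, 10.48 and 10.40) lay nearer to time 0.

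Egr2, dim and untested, followed Egr1 at week 4, with sham pools at 7.33, 7.21 and 7.34 and DMM pools at 7.56, 7.75 and 7.74. On its other probe set, dimmer still, the sham pools (6.43, 6.74 and 6.99) and the DMM pools (6.96, 7.31 and 7.28) overlapped. Egr3, another EGR factor, gave no such difference. Its week 4 pools overlapped at 9.21, 9.48 and 8.99 in sham and 9.30, 9.26 and 9.28 in DMM (0.05 ± 0.15, 95% interval -0.26 to 0.36). Its sham pools of week 16 read 8.98, 8.67 and 8.79, all below 9.33, 9.33 and 9.27 at time 0 (-0.49 ± 0.15, adjusted p = 0.0508). The other Egr3 probe set did not show this, with a difference of 0.07 ± 0.09 in the opposite direction (adjusted p = 0.682), so the probe sets disagree.

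Dusp1, the MAP kinase phosphatase, was the brightest member. Its DMM pools read 12.12 and 12.15 at week 2, above sham pools of 11.68, 12.01 and 11.46. At week 4 the DMM pools (11.83, 12.08 and 12.46) and the sham pools (11.89, 11.53 and 11.60) overlapped by 1 pool, and the difference of 0.45 ± 0.18 missed the threshold (adjusted p = 0.0779). At time 0 it read 11.66, 11.36 and 11.19, below every DMM pool of weeks 2 and 4.

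Ier2 varied little. Its lowest 2 of 26 pools were the DMM pools of week 2 at 10.03 and 10.23, below the sham pools at 10.38, 10.25 and 10.33 (-0.19 ± 0.10, adjusted p = 0.307). The time 0 pools read 10.52, 10.36 and 10.23, the last nearly tied with the higher of those DMM pools. At week 4 its DMM pools (10.39, 10.46 and 10.29) and sham pools (10.48, 10.35 and 10.28) gave a difference of 0.01 ± 0.09, with a 95% interval of -0.17 to 0.19.

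**Figure D2:**
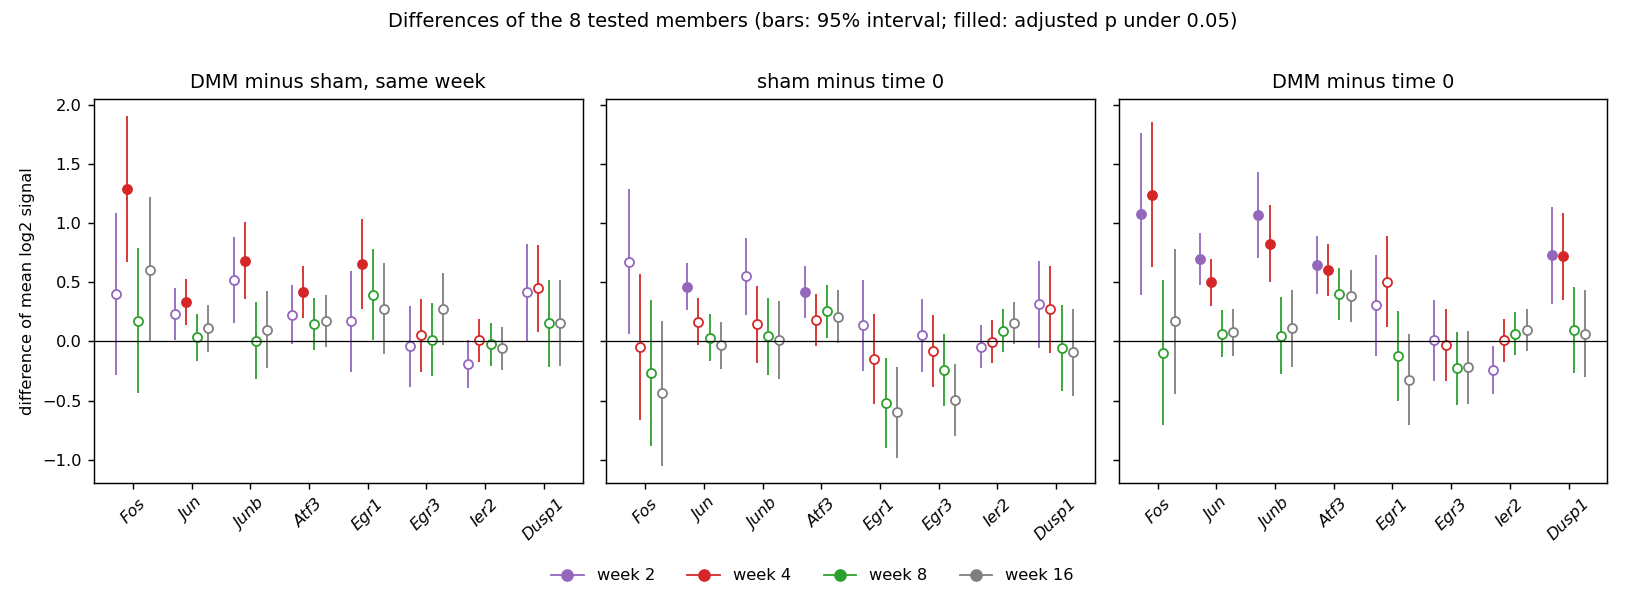
Difference of mean log2 signal (vertical axis) for the 8 tested members (horizontal axis) in DMM minus sham, sham minus time 0 and DMM minus time 0, by week in colour. Bars are 95% intervals and filled points have an adjusted p under 0.05. In DMM minus sham, 5 members are filled, all at week 4, with Fos highest at 1.29.

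The first question of the design is what DMM adds to sham surgery at the same week. At week 4, 5 of the 8 tested members were higher in DMM (Fos, Junb, Egr1, Jun and Atf3) and none was lower, against 12.4% of all probe sets called higher and 6.68% called lower. For 6 of the 10 members (these 5 and Egr2) the DMM pools lay above the sham pools with no overlap, against 19.3% of tested probe sets, though on the other probe set of Egr2 they overlapped. The median difference of the 10 members was 0.43, against -0.01 over all tested probe sets. With 3 against 3 pools, an exact permutation test of a single gene cannot give a p below 0.1, so the calls rest on the spread that limma pooled over the 9 conditions. The count depended on single pools. It was 2 without sham week 4 replicate 2 or without DMM week 4 replicate 2, and 3 without DMM week 4 replicate 3, while Fos was called in each of the 26 fits that left out 1 pool (highest adjusted p = 0.0443). With only the 2 groups fitted, 3 were called, without Jun and Junb.

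At the other weeks limma called none of the 8 in DMM minus sham. At week 2, with 2 DMM pools, 3 members had an unadjusted p under 0.05 (Junb, Dusp1 and Jun), their DMM pools above all sham pools, against 18.1% of probe sets at an unadjusted p under 0.05 and 13.1% with DMM pools above. Of all probe sets, 2.43% were called at week 2. Without sham week 2 replicate 2, the pool of its group with the highest Fos (11.18), Junb (10.30) and Dusp1 (12.01), Junb was called (adjusted p = 0.0397). At week 8 only Egr1 had an unadjusted p under 0.05 (0.40 ± 0.18, adjusted p = 0.401), 1 of 8 members against 12.1% of probe sets, and 0.00444% of probe sets were called. At week 16 no member did, against 7.39% of probe sets (0.0622% called), though the DMM pools of Fos and Atf3 lay above the sham pools, against 10.8% of tested probe sets. The median differences of the 10 members were 0.20, 0.07 and 0.17 at weeks 2, 8 and 16.

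Averaged over the 4 weeks, DMM was higher than sham for 6 of the 8 tested members, against 11% of probe sets called higher. These were Fos (0.62 ± 0.15, adjusted p = 0.00794), Egr1 (0.37 ± 0.09, 0.00957), Junb (0.33 ± 0.08, 0.00829), Dusp1 (0.29 ± 0.09, 0.0306), Atf3 (0.24 ± 0.05, 0.00444) and Jun (0.18 ± 0.05, 0.016). Egr3 (0.07 ± 0.08) and Ier2 (-0.07 ± 0.04) were not called. Of the 26 fits that left out 1 pool, 18 called Dusp1, and Jun was lost without DMM week 2 replicate 3.

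A call at week 4 and none at week 8 does not show that the weeks differ, so the change in the DMM effect was tested itself. Between weeks 4 and 8, limma called 0 of the 8 members, against 1.59% of probe sets, and 3 had an unadjusted p under 0.05, against 27.9% of probe sets. The effect at week 8 minus that at week 4 was -0.68 ± 0.22 for Junb (adjusted p = 0.0777), -1.11 ± 0.42 for Fos (0.105) and -0.30 ± 0.13 for Jun (0.153). Without DMM week 4 replicate 1, whose Fos, Junb and Egr1 were the lowest of its group, 3 members were called, and without sham week 8 replicate 1, 1 member. Between weeks 8 and 2 (0.00444% of probe sets called; 1 member with an unadjusted p under 0.05, against 15.5% of probe sets) and weeks 8 and 16 (0% called; 0 members against 10.7%), limma called none of the 8. Week 4 was not tested against weeks 2 or 16.

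The second question is how far sham surgery itself moved these genes from the unoperated joint. At week 2 limma called Jun (1.38-fold, 0.46 ± 0.09, adjusted p = 0.0216) and Atf3 (1.34-fold, 0.42 ± 0.11, 0.0471) higher than at time 0, 2 of 8 members against 1.25% of probe sets called higher. The other Jun probe set was also higher (0.63 ± 0.15, adjusted p = 0.0375). Junb (0.55 ± 0.16, 0.0728) and Fos (0.67 ± 0.29, 0.236) did not pass, although all 3 sham pools of Junb lay above time 0. These calls were fragile, since none remained without time 0 replicate 2, time 0 replicate 3, sham week 2 replicate 2 or sham week 2 replicate 3, and 14 of the other fits that left out a pool called 1 member. Atf3, close to the threshold, was called in 8 of the 26 such fits and Jun in 22. Neither was called with only the 2 groups fitted, or with the Gapdh 3′/5′ difference or the synovial marker mean as a covariate. Atf3 was also not called without the filter on dim probe sets. At weeks 4, 8 and 16 limma called 0 of 8 members (1.21%, 0.937% and 5.8% of probe sets called), with 0, 2 and 2 at an unadjusted p under 0.05, against 15.5%, 15.9% and 20.7% of probe sets. At week 16, 4 members (Fos, Egr1, Egr2 and Egr3) had all sham pools below time 0, against 17% of tested probe sets, and Atf3 had all of them above, against 18.3%. Egr1 and Egr3 there, close to the threshold, were called in 4 and 10 of the 26 fits without 1 pool. The chondrocyte and osteoblast marker means were also lower in the sham pools of week 16 than at time 0. Their part in these differences was not tested.

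Set against time 0, the DMM pools were higher at weeks 2 and 4 for Fos, Jun, Junb, Atf3 and Dusp1, 5 of 8 members at each week, against 14.3% and 6.4% of probe sets called higher. These comparisons share the DMM pools with DMM minus sham and are given side by side with it. At week 2 Junb was 2.10-fold (1.07 ± 0.18, adjusted p = 0.000174), Fos 2.11-fold (1.08 ± 0.33, 0.0182), Dusp1 1.66-fold (0.73 ± 0.20, 0.00844), Jun 1.62-fold (0.69 ± 0.11, 9.66e-05) and Atf3 1.57-fold higher (0.65 ± 0.12, 0.000437). At week 4 the values were 1.24 ± 0.29 for Fos (0.0117), 0.82 ± 0.16 for Junb (0.00269), 0.72 ± 0.18 for Dusp1 (0.0144), 0.60 ± 0.11 for Atf3 (0.00156) and 0.50 ± 0.09 for Jun (0.00266). The counts also moved with the fit. With only the 2 groups fitted, Atf3 alone was called at week 4. With the Gapdh 3′/5′ difference as a covariate, Fos and Dusp1 were not called at either week. With the synovial marker mean, none was called. Egr1, called against sham at week 4, was not called against time 0 (0.51 ± 0.18, adjusted p = 0.0969), and whether it differs from the others in this was not tested. Ier2 was lower at week 2 by value only (-0.24 ± 0.10, adjusted p = 0.0703). The count fell to 3 at week 2 without DMM week 2 replicate 3, and to 3 at week 4 without time 0 replicate 3 or DMM week 4 replicate 3. At weeks 8 and 16 limma called none (0.742% and 1.73% of probe sets called; 1 member, Atf3, with an unadjusted p under 0.05 at each, against 12% and 13.2% of probe sets). Atf3 was called at week 8 without sham week 2 replicate 3, and at week 16 without that pool or either DMM pool of week 2.

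**Figure D3:**
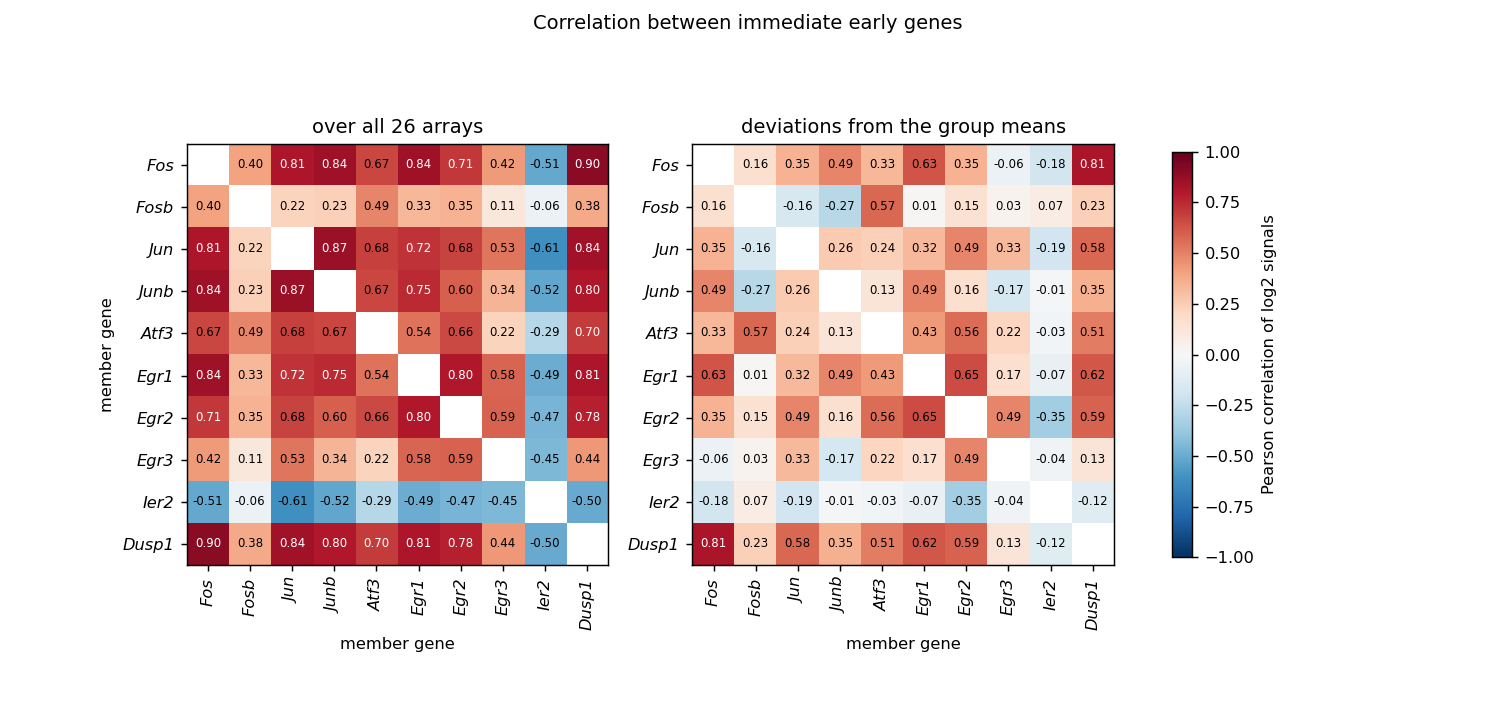
Pearson correlation of log2 signals between members, over the 26 arrays (left) and of the deviations from the group means (right), red for positive and blue for negative. Fos and Dusp1 correlate at 0.90 over the arrays and 0.81 within groups, and Ier2 is negative with each of the other 9 over the arrays.

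Over the 26 arrays Fos, Jun, Junb, Atf3, Egr1, Egr2 and Dusp1 correlated with each other at 0.54 to 0.90. Egr3 reached 0.59 with Egr2 and 0.58 with Egr1 but 0.22 with Atf3, and Fosb ranged from -0.06 to 0.49. These correlations are descriptions over arrays that share a surgery and a week. Fos and its kinase phosphatase Dusp1 had the highest Pearson correlation, 0.90, followed by Jun and Junb at 0.87, and Fos with Junb and with Egr1 at 0.84. When each pool was set against its own group mean, Fos and Dusp1 still correlated at 0.81, Fos and Egr1 at 0.63, Egr1 and Egr2 at 0.65, but Jun and Junb at only 0.26. Ier2 had correlations of -0.61 to -0.06 with the others. The share of variance lying between the 9 conditions was 85.9% for Jun and 82.1% for Junb, 74.9% for Fos and 34.3% for Fosb, against a median of 55.4% over all tested probe sets.

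Of 11495 other genes, the 10 most like the mean of the members (each scaled to its own mean and SD) over the 26 arrays were Errfi1 (Pearson 0.90), an inhibitor of the EGF receptor, Dusp16 (0.88), another MAP kinase phosphatase, Fat4, Dact1 and Rcan1, an inhibitor of calcineurin (0.88 each), Zfp521 (0.88), Ccn1 (0.87), a secreted matrix protein, Filip1l (0.87), Thbs2 (0.87), a thrombospondin, and Gem (0.87), a small GTPase. Within groups their correlations were 0.39 to 0.62.

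The genes around the members in the pathway were counted from lists, to be read against the 12.4% of all probe sets called higher and 6.68% called lower in DMM minus sham at week 4. Of 11 tested factors of the other AP-1, EGR, KLF and NR4A families, 1 was higher and 1 lower in DMM than in sham at week 4. Fosl2, a Fos relative, rose (0.68 ± 0.12, adjusted p = 0.00109) and Myc fell (-0.22 ± 0.07, 0.0412), while Jund, the brightest, was at 0.18 ± 0.10 (adjusted p = 0.20). None was called in DMM minus sham at week 2. In DMM minus time 0 at week 2, 5 were higher, against 14.3% of probe sets called higher. Among them were Klf10 (0.60 ± 0.09, 8e-05) and Jund (0.54 ± 0.11, 0.00102). The median difference of this list at week 4 was 0.06, against -0.01 over all tested probe sets.

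Feedback inhibitors of the response were higher in 4 of 14 at week 4 and lower in none. They were Socs3, which blocks cytokine receptors (1.11 ± 0.21, adjusted p = 0.00195), the EGR corepressors Nab1 (0.68 ± 0.14, 0.00308) and Nab2 (0.66 ± 0.12, 0.00133), and Ier3 (0.50 ± 0.11, 0.00448). Nfkbia, the brightest, was at 0.02 ± 0.09. Socs3 was also higher at week 2 (0.99 ± 0.24, adjusted p = 0.0347). Of 12 genes upstream of the members, 3 were higher at week 4, namely Elk3, an Ets factor that works with serum response factor (0.73 ± 0.11, 0.000699), Mrtfb, its actin-regulated partner (0.36 ± 0.10, 0.0161), and the Jun kinase Mapk8 (0.30 ± 0.07, 0.00695). The p38 kinase Mapk14 was at -0.05 ± 0.07.

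Among 13 tested effector products, 8 were higher at week 4 and none lower. The stromelysin Mmp3 had the largest difference (3.26 ± 0.52, adjusted p = 0.000837), followed by the protease inhibitor Timp1 (1.86 ± 0.40, 0.00421), Gem (1.28 ± 0.25, 0.00243), Hbegf, Cxcl1, the collagenase Mmp13 (0.77 ± 0.18, 0.00676), Ccn1 and Ccl2. Ccn2, the brightest, was at 0.19 ± 0.20 (adjusted p = 0.534). Of 12 heat shock and stress genes, Hspa1b alone was higher (0.61 ± 0.20, 0.0336), with Hspb1 at 0.23 ± 0.14 and Hspa8 at -0.05 ± 0.07. None of the genes in these 5 lists was called in DMM minus sham at weeks 8 or 16. The median differences at week 4 were 0.18 for feedback inhibitors, -0.03 for upstream genes, 0.68 for effector products and 0.10 for heat shock genes.

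**Figure D4:**
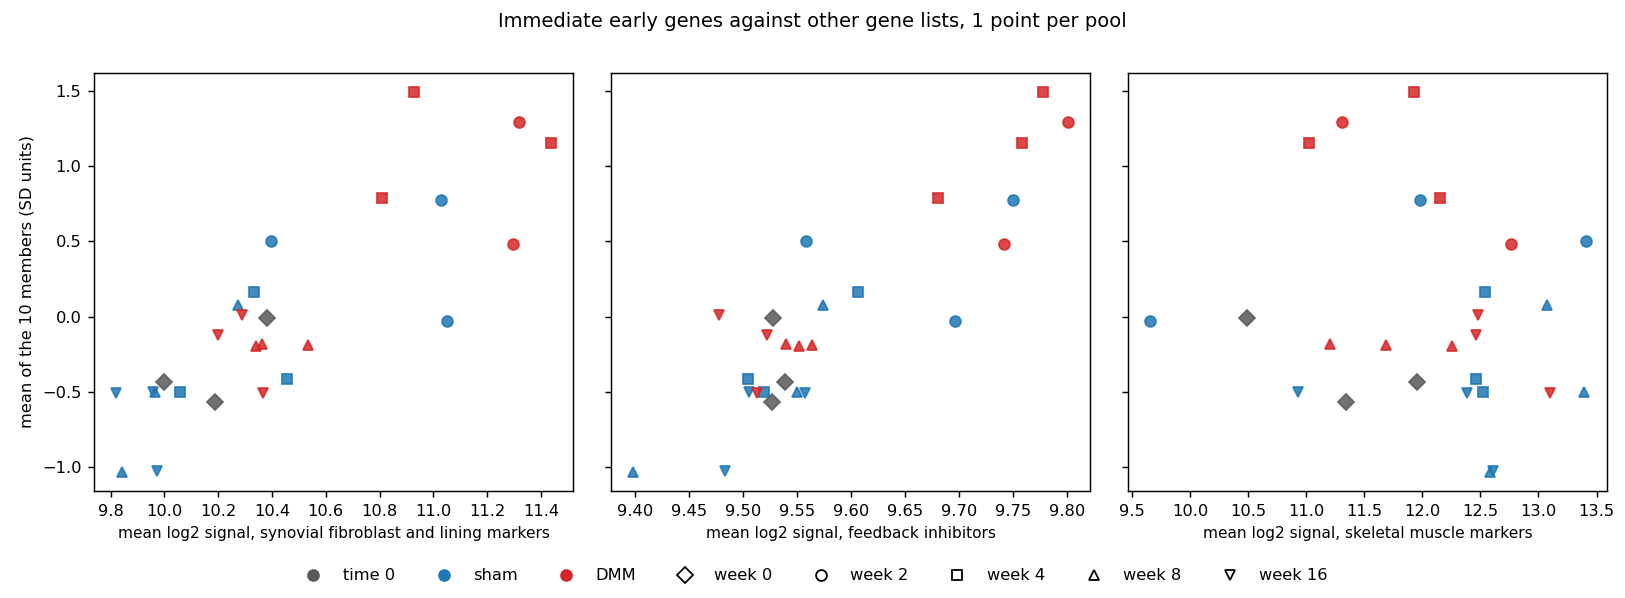
Mean of the 10 members in SD units (vertical axis) against the mean log2 signal of the markers of synovial fibroblasts and lining, of the feedback inhibitors and of the skeletal muscle markers (horizontal axes), 1 point per pool, with colour for surgery and shape for week. The DMM pools of weeks 2 and 4 lie at the upper right for synovial markers and feedback inhibitors, and no such order shows for muscle.

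Markers of some other cell types moved with the members, and their counts are read against the 12.4% of all probe sets called higher and 6.68% called lower at week 4. In that comparison, 5 of 8 tested synovial markers were higher in DMM than in sham, among them Dkk3 (1.44 ± 0.37, adjusted p = 0.0113), Pdpn (1.25 ± 0.28) and Thy1 (1.16 ± 0.17), while Prg4, the lubricin of the lining and the brightest, was at 0.27 ± 0.16. Their mean log2 signal was 10.06 to 10.45 in the sham pools of week 4, 10.81 to 11.44 in the DMM pools of week 4, 10.40 to 11.05 in sham and 11.30 to 11.32 in DMM at week 2, and 9.82 to 10.53 at weeks 8 and 16. Endothelial markers were higher in 4 of 7 tested and adipocyte markers lower in 5 of 6. Chondrocyte and osteoblast markers were higher in 1 of 8 and 1 of 6, near the share of all probe sets. The chondrocyte marker mean was 11.77 to 12.41 in the DMM pools of week 4 and 11.29 to 11.70 in the sham pools. These ranges did not overlap, whereas those of the osteoblast marker mean did. Macrophage and neutrophil markers were lower in 1 of 8 and 2 of 7. No skeletal muscle (0 of 10) or erythroid marker (0 of 5) was called. The muscle marker mean was still lower in every DMM pool of week 4 (11.02 to 12.15) than in every sham pool (12.46 to 12.54). The same held at week 8 (11.20 to 12.25 against 12.58 to 13.39), while the pools overlapped at weeks 2 and 16. The part of muscle in the results was not tested beyond the fit with its mean as a covariate. Over the 26 arrays the mean of the members correlated at 0.84 with the synovial marker mean and at 0.89 with the feedback inhibitors, and at 0.22 and 0.59 within groups. For the muscle markers the values were -0.18 and -0.02, and for the heat shock genes 0.41 and 0.77.

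With the synovial marker mean as a covariate, a fit added after the values had been seen, 0 of the 8 members was called in DMM minus sham at week 4, and 0 of all 22513 probe sets. The difference of Fos was then 1.22 ± 0.44 (adjusted p = 0.603), close in size to that without it. For Junb it went from 0.68 to 0.19 ± 0.18 (adjusted p = 0.871) and for Jun from 0.33 to 0.11 ± 0.12 (0.896). Egr1 fell to 0.50 ± 0.27 and Atf3 to 0.35 ± 0.16. Whether the members differ in how far they fell was not tested. The marker mean differs between the groups themselves, so a change in the number of synovial cells and a change in the members within cells cannot be told apart here.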

How the data were processed

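Total RNA of 26 pools, of 3 mice each, was hybridised to Affymetrix Mouse Genome arrays. The authors deposited normalized log2 signals, scaled by systematic variation normalization, for 45101 probe sets. Array medians ran from 7.90 to 7.95. The depth of counts does not apply, and the number of pools limits the precision. Only RNA of high integrity was used per the labels. The DMM pool 1 of week 2 has no array, since per the study a DMM pool of that week fell short of the RNA integrity needed.

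Probe sets were named from the platform annotation (34958 with 1 symbol, 932 with several and 9211 with none). Groups were taken from the labels. limma 3.58.1 in R 4.3.3 was fitted to the 22513 probe sets with a mean above the median of all values, with 1 mean per condition (17 residual degrees of freedom), and p-values were adjusted by Benjamini-Hochberg over all 22513 in each of 17 comparisons. Called means an adjusted p under 0.05. The procedure was tried on simulated data for DMM minus sham at week 4, with independent normal noise of the same spread in every condition. It recovered 69 of 100 changes of 0.5 and 92 of 100 changes of 1, with 11 false calls. The pools themselves do not vary so evenly. Fos had an SD of 0.73 in DMM at week 4 and 0.03 in sham at week 16.

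The members and the 14 gene lists were chosen with earlier results of these data known. Of 148 list entries, 138 had a probe set with 1 symbol. Named were all members and the 10 genes most like the members. For the pathway lists and the synovial markers, the 2 called genes with the largest difference and the brightest gene were named. Genes of the other cell type lists were only counted. Myc, Nab1, Ier3, Mapk8, Hbegf, Cxcl1, Mmp13, Ccl2 and Thy1 were named after their values were seen. Pools were paired into replicate time courses at random by the study, and numbers were not used as a block in the main fit. Deviations of pools with the same number correlated at -0.42 to 0.73. The median was 0.29 for number 1, 0.08 for number 2 and 0.07 for number 3. For pools of different numbers and conditions it was -0.05.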

Additional observations from a re-analysis of the deposited data

Results flagged for a closer look

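Fosb, too dim to be tested, had DMM pools on opposite sides of the sham mean at different weeks. All DMM pools lay above the mean of the sham pools at week 2 (difference 0.0984) and at week 4 (0.5515), and all lay below it at week 16 (-0.1374). The difference between the weeks was not tested.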

How the results depend on the processing

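In DMM minus sham at week 4, the 5 calls became 3 with only the 2 groups fitted. With that fit, the counts were 0 for sham minus time 0 at week 2 (from 2) and 2 at week 16 (from 0), and 1 each for DMM minus time 0 at week 4 (from 5), week 8 and week 16 (from 0). Without the filter on dim probe sets, sham minus time 0 at week 2 gave 1. Array weights, whose estimation stopped before it converged, gave 0 there, 1 and 4 for sham minus time 0 at weeks 8 and 16, 1 each for DMM minus time 0 at weeks 8 and 16, and 6 for the change of the DMM effect between weeks 4 and 8 (from 0). With the Gapdh 3′/5′ difference as a covariate, sham minus time 0 at week 2 gave 0, and DMM minus time 0 gave 3 at weeks 2 and 4. With the actin 3′/5′ difference (added later) these were 0 for sham at week 2, 3 for DMM at week 2, and 1 for DMM at week 16. With the synovial marker mean (added later), all calls were lost, with 0 for sham minus time 0 at week 2, DMM minus sham at week 4, DMM minus time 0 at weeks 2 and 4, the mean over the weeks and the F test. With the muscle marker mean as a covariate, 1 member was called for weeks 8 against 4. Quantile normalization, the trended robust fit and the second brightest probe set moved no count by over 1.5 times. The causes were not tested. Pools of the same number came from different mice, and 13 of 26 pools correlated best with a pool of the same number. The replicate block gave 1 call for weeks 8 against 4, Junb (adjusted p = 0.0492), and added Junb to the calls of sham minus time 0 at week 2 (adjusted p = 0.0418).

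Leaving out 1 pool at a time gave 0 to 1 calls for DMM minus sham at week 2, 2 to 6 at week 4, and 0 to 0 at weeks 8 and 16. For sham minus time 0 the ranges were 0 to 3, 0 to 0, 0 to 0 and 0 to 2 at weeks 2, 4, 8 and 16, and for DMM minus time 0 they were 3 to 5, 3 to 6, 0 to 1 and 0 to 1. The mean over the weeks gave 4 to 6, week 8 against weeks 2, 4 and 16 gave 0 to 0, 0 to 3 and 0 to 0, and the F test gave 6 to 8. A fit without a DMM pool of week 2 leaves 1 pool there, which is assumed to vary like the other groups.

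Of 128 pairs of a member and a comparison, 80 were never called in any fit, and 48 of those 80 changed sign in at least 1 fit. Among the other 48 pairs, 1 value turned its direction, Egr3 in sham minus time 0 at week 16, from -0.49 to 0.0663 with the other probe set. Of the values for single members under alternatives, 1586 kept their direction and side of the threshold, 95 fell below it and 54 passed it. Groups of 2 or 3 pools limit what could be detected, and Fosb and Egr2 lay below the filter on dim probe sets.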
